A study of Mus musculus with 2 samples.

Results

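The cells described here are lung alveolar macrophages (AMs) that carry transcripts of dividing cells, from S phase to mitosis. They were chosen by the unique molecular identifiers (UMIs, counted molecules) of 6 genes, *Mki67*, *Top2a*, *Cdk1*, *Ccnb1*, *Birc5* and *Ube2c*. A barcode was a member when it had at least 500 genes, at most 10% mitochondrial UMIs and at least 5 UMIs summed over those 6 genes. This gave 523 members of 13851 filtered cells, 353 of 6185 in the control library and 170 of 7666 in the tumor library. The study sorted AMs by flow cytometry from C57BL/6 mice, labelled post natal week 10, and sequenced single cells on a droplet platform that counts the 3′ ends of polyA RNA. Control-AM came from vehicle-control mice, and Tumor-AM from mice with orthotopic Lewis lung carcinoma (LLC) cells injected into the left lung. No genetic change separated the groups, the mice in the study's methods were female, and both groups went through the same digestion of the lung and sort. Each group was 1 library, and the number of mice behind a library is not given in the sources used here, so library and condition cannot be told apart and no test was made.

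AMs are macrophages of the air space that are known to maintain themselves by dividing in place, with support from the cytokine GM-CSF. A dividing cell licenses its origins in G1, copies its DNA in S phase, and then builds up cyclins, kinesins and kinetochore proteins for mitosis, many of which are destroyed as the cell leaves it. Their genes are known to be transcribed late, through a complex called DREAM that represses them in resting cells and through B-MYB and FOXM1 that activate them, at promoter elements called CHR and CCAAT boxes, while S-phase genes carry E2F sites.

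Promoters of the members' leading genes were read from RefSeq for the mouse build GRCm38.p6, as 120 bases that end 1 base before the RefSeq transcription start, 5′ to 3′ on the gene's strand. They lie upstream of that start, but GENCODE vM21 starts 4 of the genes earlier, so that 84 bases of the *Ccnb1* stretch, 31 of *Ube2c*, 26 of *Cdk1* and 9 of *Cdc20* are inside its gene spans. The other 3 stretches are outside them. Capitals mark TTTGAA (or TTCAAA on the other strand), the letters of a CHR, CCAAT (or ATTGG), and the E2F-type letters TTTCCCGC, TTTGGCGC, TTTCGCGC and TTTGCCGC on either strand. The first 5 are rule genes, *Cdc20* activates the anaphase-promoting complex and *Mcm6*, a subunit of the replicative helicase, is shown as an S-phase gene, chosen because it holds E2F-type letters, which the like stretches of *Mcm5*, *Mcm10*, *Rrm2* and *Uhrf1* do not. In order they lie at chr7:135716380-135716499 (minus strand), chr11:99024190-99024309 (minus), chr10:69352913-69353032 (minus), chr13:100786487-100786606 (minus), chr2:164769809-164769928 (plus), chr4:118437344-118437463 (minus) and chr1:128359706-128359825 (minus).
Mki67: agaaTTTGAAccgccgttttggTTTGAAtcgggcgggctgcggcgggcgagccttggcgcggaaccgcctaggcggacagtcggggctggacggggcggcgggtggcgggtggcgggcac
Top2a: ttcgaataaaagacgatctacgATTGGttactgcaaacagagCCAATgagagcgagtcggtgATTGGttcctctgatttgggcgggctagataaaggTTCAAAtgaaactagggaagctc
Cdk1: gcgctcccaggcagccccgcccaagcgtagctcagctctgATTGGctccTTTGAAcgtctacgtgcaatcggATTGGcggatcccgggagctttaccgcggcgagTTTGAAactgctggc
Ccnb1: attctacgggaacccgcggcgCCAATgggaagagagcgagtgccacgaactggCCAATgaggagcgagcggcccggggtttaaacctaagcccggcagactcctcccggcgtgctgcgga
Ube2c: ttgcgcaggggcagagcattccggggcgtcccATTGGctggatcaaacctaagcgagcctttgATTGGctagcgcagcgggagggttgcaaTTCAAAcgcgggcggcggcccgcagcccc
Cdc20: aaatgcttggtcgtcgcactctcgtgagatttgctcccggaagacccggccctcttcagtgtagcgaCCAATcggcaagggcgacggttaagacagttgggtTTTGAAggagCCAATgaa
Mcm6: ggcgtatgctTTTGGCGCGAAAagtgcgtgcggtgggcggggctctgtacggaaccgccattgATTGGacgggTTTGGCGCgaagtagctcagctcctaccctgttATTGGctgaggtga

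Counting the base before the start as -1, TTTGAA began at -116 and -98 in *Mki67*, at -71 and -15 in *Cdk1* and at -18 in *Cdc20*. *Ccnb1* held 2 CCAAT boxes, at -99 and -67, and no TTTGAA in the stretch shown. In *Mcm6* the E2F-type letters began at -110, -106 and -47, the first pair overlapping in 1 run of capitals. None of the 3 kinds of letters was in the window of *Birc5*, which says only that these letters are absent there.

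Over RefSeq windows of 300 bases (250 before to 50 after the start), TTTGAA or TTCAAA was in 17.9% of all 32851 windows. It was in 4 of the 6 windows of the rule genes, and in 60 of 103 windows (58.3%) of the rule genes together with the lists of mitotic genes described below, of which 94 of 113 symbols were matched. Windows of origin licensing, DNA synthesis and repair genes held it in 5 of 49 (10.2%), with 43 of 55 symbols matched. The E2F-type letters went the other way, being in 36.7% of those S-phase windows, 7.77% of the mitotic windows and 2.26% of all windows. CCAAT or ATTGG was frequent in both, at 73.8% of mitotic and 61.2% of S-phase windows against 37.4% of all. By role, TTTGAA was in 12 of 13 windows of cytokinesis genes, 13 of 19 of spindle genes and 4 of 10 of mitotic entry genes. In the last 120 bases before the start alone, the part printed above, it was in 24.3% of the mitotic windows and 7.12% of all windows, and the E2F-type letters were in 10.2% of the S-phase windows and 0.962% of all. These matches describe letters and no binding was measured.

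Members made up 5.71% of filtered cells in the control library (95% exact interval 5.14 to 6.31) and 2.22% in the tumor library (1.90 to 2.57). The difference was -3.49 percentage points (-4.18 to -2.82), and the control share was 2.57 times the tumor share. All intervals here cover counting error only and not the spread between animals. Depth moved with this result, since the median UMIs of filtered cells were 10370 in the control library and 8264 in the tumor library. When each cell was thinned to 3800 UMIs, leaving out 595 control and 729 tumor cells that were shallower (11 and 4 of them members), cells that still had at least 5 UMIs of the rule genes were 3.99% in the control library (3.49 to 4.54) and 1.73% in the tumor library (1.44 to 2.06). Thinned cells with at least 2 such UMIs were 6.30% and 2.85%, and with at least 1 they were 13.8% and 8.14%. The difference (tumor minus control) was -2.26 points at a minimum of 5 UMIs. At a minimum of 1 it was -5.63 points, but barcodes with under 500 genes also had such a UMI more often in the control library (6.58% against 3.22%, not thinned), so that share is not read as dividing cells.

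S-phase cells without mitotic transcripts served as a neighbouring class. They had at least 5 UMIs over *Rrm2*, *Mcm3*, *Mcm5*, *Mcm6*, *Clspn*, *Gins2* and *Uhrf1* and at most 1 UMI of the rule genes. There were 236 in the control library (3.82%, 3.35 to 4.32) and 162 in the tumor library (2.11%, 1.80 to 2.46), a difference of -1.70 points (-2.30 to -1.12). They too were a larger share of the control cells.

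**Figure D1:**
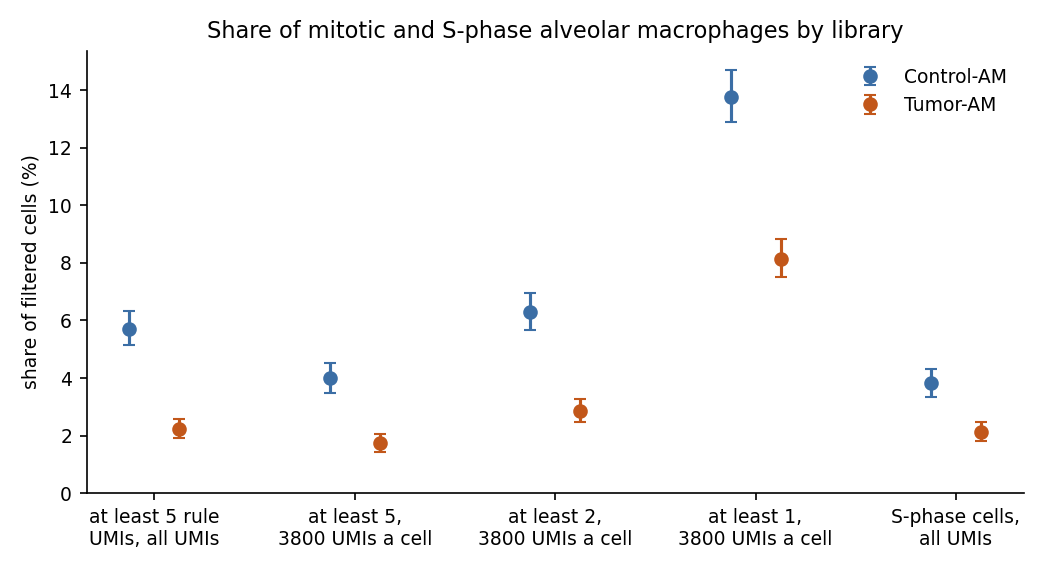
Share of filtered cells (percent, vertical axis) in Control-AM (blue) and Tumor-AM (orange) for the members, for cells with at least 5, 2 or 1 rule UMIs after thinning to 3800 UMIs, and for S-phase cells. Points are shares and bars exact 95% intervals from counting. The control point lies above the tumor point in each pair. The shares are 5.71% against 2.22% for the members and 13.8% against 8.14% for 1 or more UMIs, the latter not read as dividing cells.

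Members had more UMIs than the rest. Their median UMI count was 14833 in control and 12290 in tumor, against 10181 and 8203.5 in the other filtered cells, which is 1.46 and 1.5 times as many. Of the members, 81.3% in control and 84.1% in tumor lay above the median of the other cells. Genes per cell followed, with medians of 4110 and 3808 in members and 3136.5 and 2777.5 in the others, while mitochondrial shares were alike at 2.60% and 2.52% against 2.70% and 2.47%. The rule counts UMIs, and how far that sets this gap was not tested. S-phase cells also had higher medians than the others, 13057.5 in control and 11669 in tumor. A doublet caller's own threshold called 0 cells in each library and so had not worked, and whether 2 cells shared a barcode was not tested in another way. Leaving out the top 6% of doublet scores in each library, with all cells tied at the cutoff, removed 385 control and 512 tumor cells. Among them were 32 control members (9.07%) and 14 tumor members (8.24%). The libraries shared 25 barcodes, 17 after filtering, and no member's barcode was shared.

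The rule genes themselves describe how members were chosen. *Mki67*, which coats mitotic chromosomes, was at 714 CPM (counts per 1000000 UMIs of the class) in control members and 8.20 in the other control cells, and at 674 and 7.53 in the tumor library. *Top2a*, the topoisomerase that untangles sister chromatids, was at 629 against 4.56 CPM in control and 680 against 3.19 in tumor. *Cdk1*, the mitotic kinase, was at 205 CPM in control members and 184 in tumor members, and its cyclin *Ccnb1* at 83.9 and 78.9. *Birc5*, survivin of the chromosomal passenger complex, was at 451 and 407 CPM, and *Ube2c*, a ubiquitin-conjugating enzyme of the anaphase-promoting complex, at 343 and 284. In both libraries *Mki67* was detected in nearly every member, 98.0% in control and 97.1% in tumor, and *Ccnb1* in the fewest, 49% and 51.2%. *Cenpf*, a kinetochore protein given with the label and not used by the rule, was seen in 63.7% and 70.6% of members and in 0.806% and 0.414% of the other cells. The leading gene differed in part by library: *Mki67* gave the most rule UMIs in 183 control members (51.8%) and 65 tumor members (38.2%), and *Top2a* in 92 (26.1%) and 77 (45.3%). Ties were given to the gene named first in the rule, *Mki67* before *Top2a*. Cells were not thinned for these counts, which are a description only.

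These 6 genes span chr7:135689784-135716361 (*Mki67*, minus strand), chr11:98992943-99024189 (*Top2a*, minus), chr10:69335146-69352938 (*Cdk1*, minus), chr13:100778650-100786570 (*Ccnb1*, minus), chr11:117849251-117855743 (*Birc5*, plus) and chr2:164769898-164778822 (*Ube2c*, plus) in GRCm38. UMIs were counted per gene, so no exon or transcript can be told apart within them.

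The rule sum ran from 5 to 141 in control members, with a median of 29, and from 5 to 133 in tumor members, with a median of 24.5. All 6 genes were detected in 125 control members (35.4%) and 54 tumor members (31.8%), and 3 control members rested on a single gene. Just below the minimum, 30 control and 25 tumor cells had 4 rule UMIs, and just above it 24 and 9 had 5. Members held 90.1% of all rule UMIs of filtered control cells and 81.3% in tumor. At least 1 rule UMI was also found in 17.8% of the other control cells and 12.0% of the other tumor cells. Barcodes with under 500 genes had one in 6.58% (median 727 UMIs) and 3.22% (median 715 UMIs), so single UMIs were not read as division. Whether those barcodes hold free RNA or poor cells was not tested.

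The label calls these cells G2/M, and the transcripts measured in them spread wider than that. Cells were split by their rule UMIs, and 46 genes of origin licensing and DNA synthesis were summed, none of them in the rule. Control cells with 0 rule UMIs had 643 CPM of these genes (636 to 651), cells with 3 to 4 had 3044 (2942 to 3149), members with 5 to 6 had 4012 (3852 to 4178), members with 20 to 49 had 6527 (6399 to 6657) and members with 50 or more had 4082 (3988 to 4178). The S-phase sum was thus highest in the middle of the range and lower at its top in control. In tumor cells it ran from 558 at 0 UMIs over 2243, 3348 and 5271 to 4784 CPM (4619 to 4953) at 50 or more.

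Late genes had another shape. The late sum over *Cdc20*, *Plk1*, *Aurka*, *Nek2*, *Cenpa*, *Ccnb2* and 4 others of G2 and mitosis was 24.6 CPM in control cells without rule UMIs, 131 (104 to 164) in members with 5 to 6, 1156 (1102 to 1211) at 20 to 49 and 2372 (2300 to 2445) at 50 or more. It climbed over the whole range. In the tumor library the same steps were 20.7, 453 (371 to 547), 1525 (1442 to 1611) and 1898 (1795 to 2006) CPM. The lowest member class, 5 to 6 rule UMIs, held 45 cells in control and 20 in tumor. The lists differ in size, so their sums are compared along the range and not with each other.

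**Figure D2:**
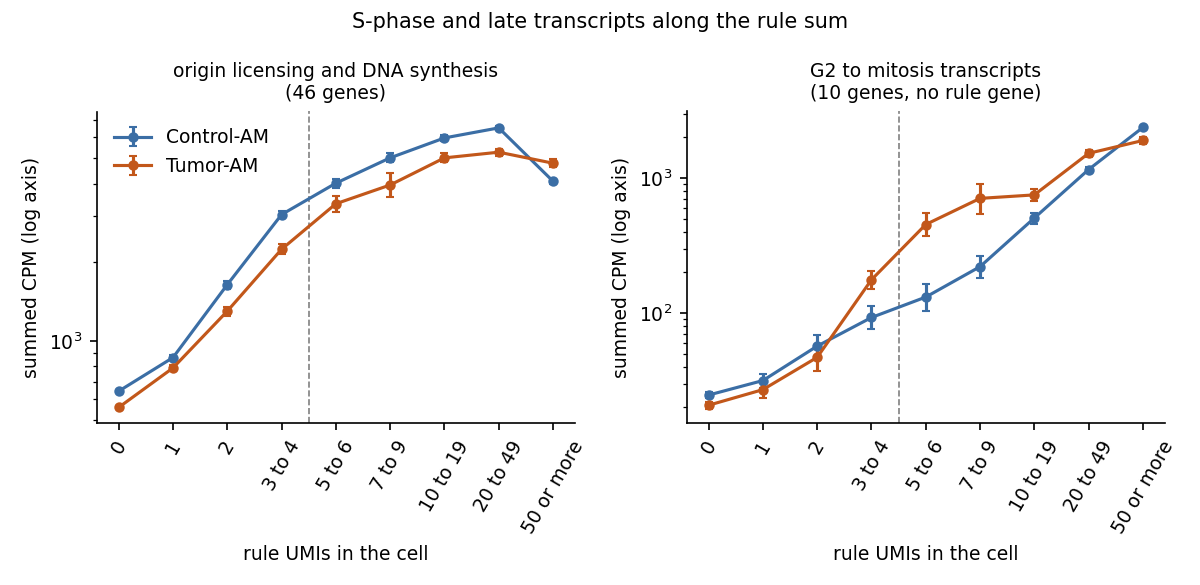
Summed CPM (log axis) of 46 licensing and synthesis genes (left) and 10 late genes (right) against the number of rule UMIs in a cell, for Control-AM (blue) and Tumor-AM (orange), with 95% counting intervals; the dashed line is the minimum of 5. The S-phase sum of control cells peaks at 20 to 49 rule UMIs (6527 CPM) and is 4082 at 50 or more, while the late sum is highest at 50 or more, 2372 in control and 1898 in tumor.

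Within members, early S transcripts (*Ccne1*, *Ccne2*, *Cdc6*, *Mcm5*, *Mcm10*, *Dtl*, *Gins2*, *Clspn*) were set against the late ones (*Cdc20*, *Plk1*, *Aurka*, *Nek2*, *Cenpa*, *Ccnb2*), cell by cell. In control, 60 members (17%) had at least 3 early UMIs and no late one, 31 (8.78%) had at least 3 late UMIs and no early one, and 135 (38.2%) had at least 3 of each. In tumor the counts were 20 (11.8%), 23 (13.5%) and 69 (40.6%). Members were thus a mixture that runs from S phase to mitosis, and are named here by their transcripts and not as G2/M cells. Thinned to 3800 UMIs, 31.6% of control members (26.7 to 36.8) and 25.3% of tumor members (18.9 to 32.6) had early UMIs alone, and 19.6% (15.5 to 24.2) and 25.3% (18.9 to 32.6) had late UMIs alone. The intervals of the libraries overlap for either class. Over the 353 control members the CPM of the lists had a Spearman correlation of -0.48, and over the 170 tumor members one of -0.53. The cells share their library and the sums share each cell's total, so this is a description only.

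**Figure D3:**
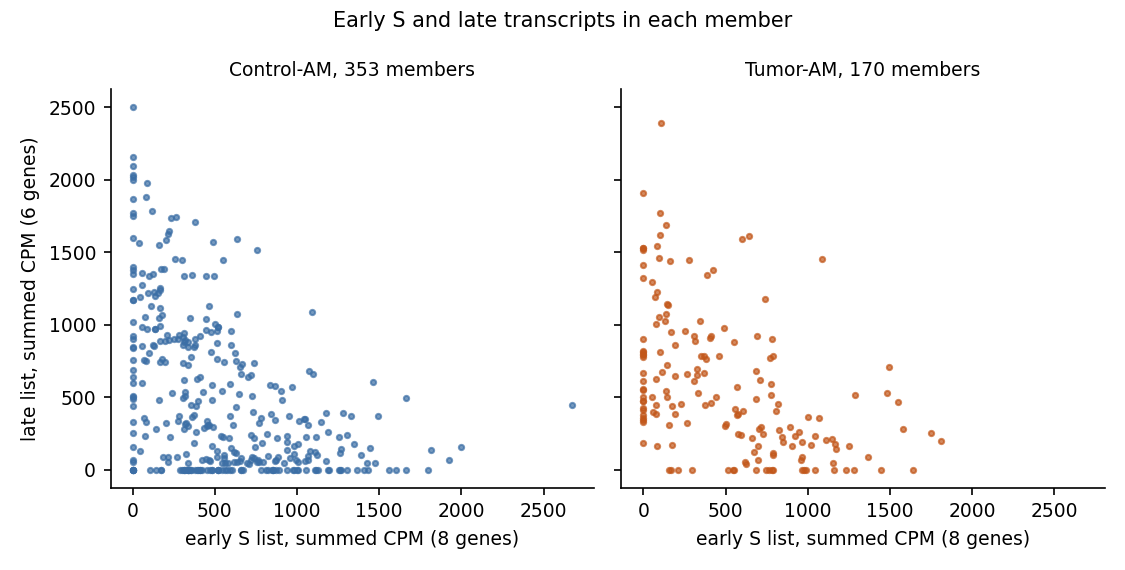
Each point is 1 member, with the summed CPM of 8 early S genes across and of 6 late genes up, for Control-AM (353 members, left) and Tumor-AM (170, right). Members lie along both axes as well as between them, with 60 control and 20 tumor members at 3 or more early UMIs and no late one.

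The contrast of members with the other cells of their library is the one that chose them, so its values are given as a description and without a test. A gene was counted when its CPM was at least 10 in the higher group and it had at least 50 UMIs over both. Of 8065 such genes in control, 705 (8.74%) were at least 2-fold higher in members and 41 (0.508%) at least 2-fold lower. In tumor 783 of 8140 (9.62%) were higher and 74 (0.909%) lower. The median log2 ratio over all genes was 0.07 in each library. Far more genes were therefore higher than lower in members, and nothing is read from these shares, since the rule used this contrast.

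Regulators of mitotic entry were higher throughout, 17 of 17 counted genes past 2-fold in control with a median log2 ratio of 4.97, and 16 of 16 in tumor with a median of 4.90. *Ccna2*, the cyclin of S phase and G2, was at 125 CPM in control members and 0.302 in the other cells, and at 151 against 0.391 in tumor. Cyclin B2 (*Ccnb2*) was at 150 against 3.25 CPM in control and 152 against 2.2 in tumor. *Foxm1*, the transcription factor of this wave, was at 61.0 against 0.419 and 66.7 against 0.511. Its target kinase *Plk1* was detected in 43.3% of control and 49.4% of tumor members and in under 1% of the other cells (0.703% and 0.454%). The kinase *Aurka* was at 34.5 and 37.5 CPM in members, and the phosphatase *Cdc25b* at 86.6 and 72.8, against 18.3 and 16.4 in the others.

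Of the kinetochore list, 23 of 24 genes were past 2-fold in each library, with medians of 4.85 and 5.75. *Cenpa*, the histone H3 variant of centromeres, was at 182 CPM in control members and 217 in tumor members, and was found in 8.71% and 8.36% of the other cells. The motor *Cenpe* was at 169 and 180 CPM against 3.44 and 2.33. *Knl1*, the scaffold of the outer kinetochore, was at 103 and 102 against 0.688 and 0.316. The exception was *Zwint*, which binds the same scaffold, at 47.9 CPM in control members and 33.7 in the other control cells (log2 0.51, 0.31 to 0.70) and at 48.8 against 33.3 in tumor (0.55).

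Spindle checkpoint and anaphase genes were past 2-fold for 12 of 14, with medians of 4.39 and 3.64. The checkpoint kinase *Bub1* was at 74.4 and 76.3 CPM in members against 0.403 and 0.331, and *Cdc20* at 57.0 and 61.9 against 0.587 and 0.286. Both exceptions were genes found in many other cells. Securin, *Pttg1*, which holds separase until anaphase, was at 52.0 CPM in control members and 48.0 in the other cells (log2 0.12, -0.07 to 0.30), and *Cdc27*, a core subunit of the anaphase-promoting complex, at 25.4 against 15.2 (0.74). Separase, *Espl1*, was at 44.2 against 1.68 CPM in control and 41.0 against 6.36 in tumor, so its log2 ratio was 4.72 in control and 2.69 in tumor. The gap came from the other cells, where *Espl1* was seen in 1.63% of control and 5.24% of tumor cells, and not from the members, 38.2% and 42.4% of which had it.

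All counted spindle genes were past 2-fold, 22 of 22 in control and 21 of 21 in tumor, with medians of 5.50 and 5.35. The bipolar kinesin *Kif11* was at 164 and 145 CPM in members against 0.839 and 0.526, and *Kif15*, another kinesin of the spindle, at 120 and 113 against 1.01 and 0.571. *Tpx2*, which nucleates microtubules at chromosomes, was at 185 and 193 against 6.04 and 4.74. The abundant *Tubb5*, a tubulin, moved less in ratio, at 1754 and 1613 CPM in members and already at 286 and 273 in the others. *Stmn1*, which takes up tubulin dimers, was at 1813 and 1726 against 66.3 and 50.7, a log2 ratio of 4.77 in control. *Stmn1* had a UMI in 99.2% of control and 98.8% of tumor members, and in 32.2% and 24.3% of the other cells. The smallest ratio of the list in each library was that of *Tuba1c*, an alpha tubulin, at 1.30 and 1.20.

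Cytokinesis and chromosomal passenger genes were past 2-fold in 13 of 13, with medians of 5.55 and 5.64. *Prc1*, the bundler of the central spindle, was at 263 CPM in control members and 2.58 in the other cells, and at 242 against 1.92 in tumor. *Aurkb*, the kinase of the passenger complex, was at 91.5 and 84.6 against 2.60 and 2.21, and its partner *Incenp* at 157 and 151 against 16 and 15.1. *Anln*, *Ect2* and *Racgap1*, which act in cleavage furrow formation, were detected in 42.4% to 79.4% of members. Summed over the list, members had 28.0 times the CPM of the other control cells and 32.9 times that of the other tumor cells.

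Chromatin condensation genes were past 2-fold in 15 of 16, with medians of 3.18 and 3.32. The condensin subunits *Smc2* and *Smc4* were at 311 and 516 CPM in control members and at 328 and 467 in tumor members, and *Smc4* was already seen in 45.5% and 34.2% of the other cells. *H2afz*, a histone H2A variant, was at 3270 against 925 CPM in control and 3390 against 784 in tumor, and *Hmgb2*, a DNA-bending chromatin protein, at 1277 against 128 and 1099 against 111. The exception was the linker histone *Hist1h1c*, at 49.6 against 56.7 CPM in control (log2 -0.19, -0.38 to -0.01) and 86.3 against 81.2 in tumor.

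S-phase genes were part of the same cells. Origin licensing genes were past 2-fold in 15 of 15 in control and 16 of 16 in tumor (medians 2.53 and 3.16), DNA synthesis genes in 30 of 30 (3.23 and 3.66) and recombination genes in 9 of 9 (4.68 and 5.33). *Pcna*, the sliding clamp, was at 698 against 164 CPM in control and 646 against 150 in tumor. *Rrm2*, the small subunit of ribonucleotide reductase, was at 187 against 1.88 and 201 against 1.37. Helicase subunits lay between these in ratio, *Mcm5* at 113 against 14.8 and 107 against 9.64, and *Mcm6* at 135 against 24.8 and 123 against 18.0.

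The S-phase cells are set beside members as a description, since the genes that chose them include *Mcm3*, *Mcm5*, *Mcm6* and *Gins2*, and since their limit on rule UMIs is opposite to that of members. Licensing genes summed to 1502 CPM in control members and 972 in S-phase cells, 1.54 times as much, and to 1360 against 1089 in tumor, 1.25 times. *Mcm6* went the other way, at 135 CPM in members and 154 in S-phase cells of control and at 123 and 171 in tumor. Late genes summed to 32.1 times as much in members as in S-phase cells of control, and 39.8 times in tumor. *Nek2*, a centrosome kinase, and *Cdc25c*, the phosphatase that switches on Cdk1, had no UMI in S-phase cells of either library (up to 0.95 CPM in control and 1.47 in tumor by 3 counts) and were at 35.3 and 36.2 CPM and at 12.0 and 12.2 CPM in members.

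**Figure D4:**
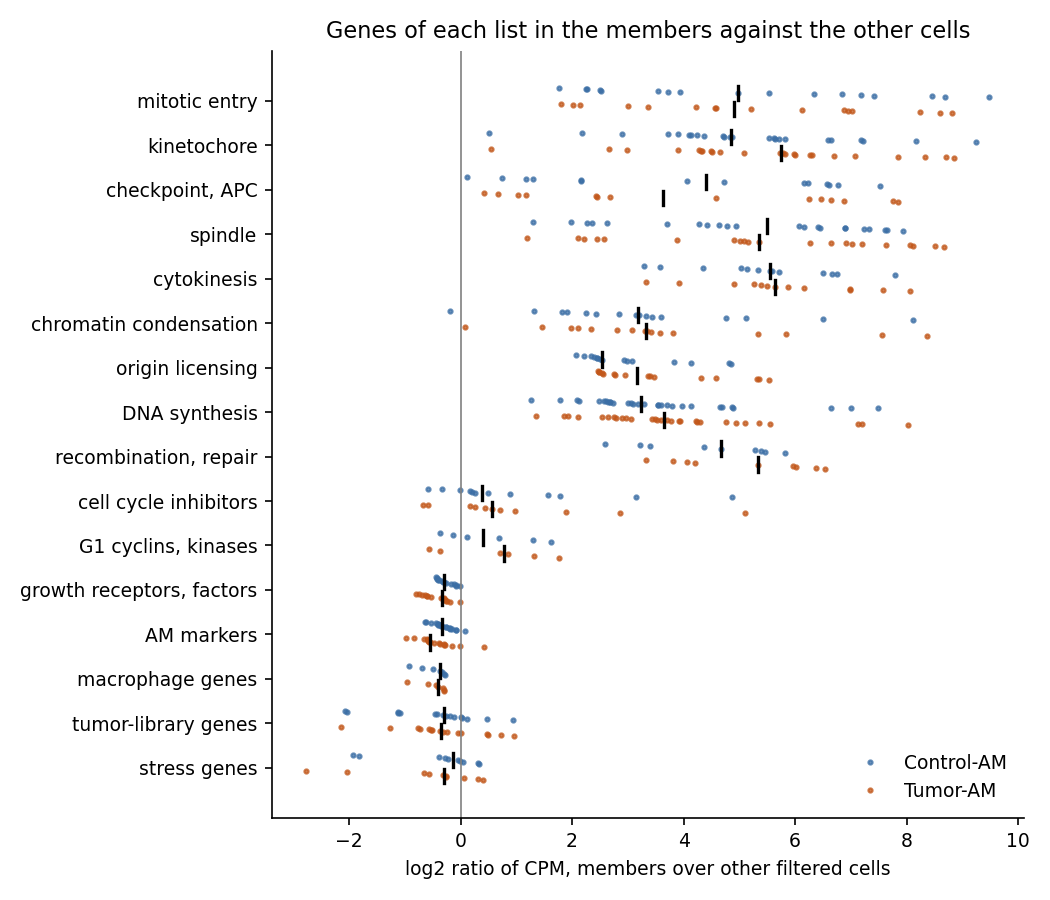
Log2 ratio of pooled CPM in members over the other filtered cells (horizontal axis) for each counted gene of 16 lists, Control-AM in blue and Tumor-AM in orange, with a black bar at each list's median. Mitotic and S-phase lists lie right of 0 (medians 2.53 to 5.75), and markers of AMs and macrophages, growth receptors and stress genes lie near or left of it.

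Not every gene tied to the cell cycle followed. Of the inhibitors, 4 of 12 were past 2-fold in control (median 0.38) and 3 of 11 in tumor (median 0.57). In tumor this was 4 of 11 (median 0.61) without 2 members low in AM transcripts, described with the markers. Over all genes 8.74% were at least 2-fold higher in control and 9.62% in tumor. The inhibitors higher in both libraries were *Cdkn2c* (log2 4.88 and 5.10) and *Cdkn2d* (3.15 and 2.86), inhibitors of Cdk4 and Cdk6, and *Rbl1* (1.78 and 1.90), a relative of the retinoblastoma protein. *Cdkn2a* was at 14.3 against 4.80 CPM in control and 6.10 against 4.95 in tumor. *Cdkn1a*, the p21 inhibitor, was at 843 against 727 CPM in control and 1083 against 731 in tumor, and at equal depth a UMI was found in 88.3% of control members (84.4 to 91.5) and 92.8% of tumor members (87.7 to 96.2), against 81.3% and 83.1% of the others. *Btg1*, an antiproliferative gene, was at 354 against 527 and 590 against 941.

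Among G1 genes, *Cdk2* (log2 1.62 and 1.77) and *Cdk4* (1.30 and 1.32) were past 2-fold. *Ccnd2*, the D-type cyclin that acts before S phase, was lower in members, at 399 against 516 CPM in control and 177 against 260 in tumor, and highest in S-phase cells, at 607 and 355. *Myc* was low throughout, at 11.1 CPM in control and 17 in tumor members. In tumor members 64.1% of its UMIs came from 2 cells, so its levels are not compared between the libraries. Growth factor receptors and transcription factors of AM self-renewal were past 2-fold in 0 of 14 genes in control and 0 of 16 in tumor, with medians of -0.30 and -0.33. Over all genes 8.74% were higher and 0.508% lower in control, and 9.62% and 0.909% in tumor, so a count of 0 is near what the background gives for so few genes. Without 2 tumor members low in AM transcripts, described with the markers, 1 of the 16 was lower past 2-fold in tumor. The GM-CSF receptor chains were at 202 against 272 CPM (*Csf2ra*) and 318 against 427 (*Csf2rb*) in control, and at 169 against 257 and 378 against 543 in tumor. *Pparg*, the AM master regulator, was at 120 against 128 and 97.7 against 120.

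The 10 genes with the highest ratios outside these lists are named next. *Esco2*, which acetylates cohesin, was at 111 CPM in control members and 0.252 in the other cells, and at 100.3 against 0.195 in tumor. *Pclaf*, a partner of Pcna, was at 518 and 524 CPM, and was found in 90.4% and 92.4% of members and in 2.42% and 1.43% of the others. *Iqgap3*, a scaffold protein, *Neil3*, a DNA glycosylase, *Cdca3*, which marks Wee1 for destruction, and *Cdkn3*, a phosphatase that acts on Cdk proteins, followed at log2 ratios of 5.55 to 8.95. The other 4 were histones that are copied with DNA, *Hist1h2ap*, *Hist1h2ae*, *Hist1h4d* and *Hist1h1e*. Histone genes of these clusters are near copies of each other and most of their transcripts lack a polyA tail, so their counts are uncertain.

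Lower in members of both libraries were *Hist1h2bc*, an H2B histone gene, at 49.2 against 202 CPM in control and 83.3 against 229 in tumor, and the heat shock genes *Hspa1a* (33.4 against 117 and 65.0 against 267) and *Hspa1b* (29.7 against 113 and 47.1 against 320). The heat shock pair are near copies, so UMIs may be divided between them unevenly. At equal depth *Hspa1a* was detected in 6.73% of control members against 13.6% of the others, and in 12.7% against 24.1% in tumor. *Hspa5*, the chaperone of the endoplasmic reticulum, was at 400.2 against 771 and 395 against 749, *Mmp19*, a metalloproteinase, at 150.2 against 323 and 281 against 572, and *Samhd1*, which degrades deoxynucleotides, at 116 against 240 and 159 against 307. *Aldoc*, a glycolytic aldolase, *Hilpda*, a lipid droplet protein, and the noncoding *Mir22hg* completed the 10 together with *Adgre1*, the gene of F4/80, which was at 63.7 against 121 CPM in control and 60.2 against 116 in tumor.

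Markers placed nearly all members among AMs. Summed over 19 AM markers, a control member had 10199 to 66624 CPM with a median of 21699, and a tumor member 576 to 76748 with a median of 19711, against medians of 26920 and 24583 in the other cells. All 19 were under 2-fold in either direction, with medians of -0.33 in control and -0.55 in tumor. Over all genes 8.74% were at least 2-fold higher and 0.508% lower in control, and 9.62% and 0.909% in tumor. Nothing is read from the count of 19, since it is near this background for so few genes. *Chil3*, a chitinase-like protein abundant in AMs, was at 9912 against 11810 CPM in control and 8732 against 10581 in tumor. *Lyz2*, lysozyme, was at 11556 against 16304 and 13489 against 18259, and *Fabp4*, a lipid carrier, at 249 against 357 and 193 against 378. Members gave 3.19% and 3.14% of their UMIs to the cell cycle lists, against 0.650% and 0.636% in the other cells.

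Markers of other cell types were counted in the same way. T cell and NK cell lists had 0 UMIs in members of both libraries, which allows up to 0.572 CPM in control and 1.31 in tumor (3 counts of the total). B cell genes had 7 UMIs in control members and 0 in tumor members. The fibroblast list (*Col1a1*, *Col1a2*, *Col3a1*, *Dcn*, *Lum*) had 1 UMI in control members and 98 in tumor members, 79 of them in a single cell. The neutrophil list summed to 47.5 CPM in control and 102 in tumor members, against 72.3 and 124 in the other cells. In members *S100a9* and *Retnlg* were at 0, and *S100a8*, *Csf3r* and *Cxcr2* gave all its UMIs. At 3 or more of these UMIs were 25 control and 32 tumor members. *S100a8* had a log2 ratio of tumor over control of 1.54 in members and 1.16 in the other cells. Monocyte genes summed to 330.4 and 802 CPM, against 370 and 941, with 186 of 353 control and 130 of 170 tumor members at 3 or more UMIs. Most of that sum was *Fn1*, fibronectin, at 316 and 769 CPM, while *Ly6c2* was at 0 UMIs in control members and 0.436 CPM in tumor members. *Ccr2*, the chemokine receptor of monocytes, went against the sum, at 13.5 CPM in control members against 3.57 in the others (log2 1.92, 1.51 to 2.32), and at 22.2 against 8.71 in tumor (1.35, 0.91 to 1.77), or 22.9 CPM without the 2 cells described next. It was seen in 12.5% of control and 16.5% of tumor members, and in 3.09% and 5.44% of the others. *Cx3cr1*, a receptor of monocytes and interstitial macrophages, was at 10.03 against 2.87 CPM in tumor (log2 1.80), where 5 members had it and 2 of them held 65.2% of its UMIs, and at 1.14 against 2.05 in control. With cells flagged for UMIs of some other types left out, members were 5.77% of control and 2.11% of tumor cells. That flag did not cover every list here, and what part cells of these types have in the results was not tested further. Epithelial genes summed to 86.7 and 27.9, against 90.5 and 24.7, with 62 control and 5 tumor members at 3 or more UMIs, and interstitial macrophage genes to 1.33 and 15.3, against 3.04 and 43.8.

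No UMI of *Ptprc* (CD45), a protein used in the sort, was found in 3 control and 4 tumor members. Of the latter, 2 stood apart from the label, with AM markers of 914 and 576 CPM. One held 56920 UMIs, the most of any member, and 6705 genes, with 939 UMIs of *S100a6*, a calcium-binding protein, 51 of *Col3a1*, a collagen, and 60 of the rule genes. The other held 12147 UMIs, 535 of *S100a6*, 72 of *Igfbp4* and 10 of the rule genes. What these cells are was not tested. Values of several named genes that moved without them are given both ways, set against all the other tumor cells. Without the 2 cells the tumor share was 2.2% on 168 members.

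Tumor members were next set against control members, a comparison the rule did not use. Of 8224 genes counted, 204 (2.48%) were at least 2-fold higher in tumor members and 131 (1.59%) at least 2-fold lower. In the other cells of the same libraries 205 of 7616 (2.69%) were higher and 65 (0.853%) lower. The median over all genes was -0.03 in members and -0.02 in the other cells.

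Genes of the mitotic and S-phase lists stayed within 2-fold between the libraries. Each of the 9 mitotic and S-phase lists had 0 genes past 2-fold in either direction in members, with medians from -0.16 (DNA synthesis, 30 genes) to 0.02 (mitotic entry, 17 genes). *Mki67* was at 714 CPM in control members (691 to 737) and 674 in tumor members (640 to 708), *Cenpf* at 257 (243 to 271) and 255 (235 to 277), and *Stmn1* at 1813 and 1726. The control share of members was 2.57 times the tumor share. Over all genes 2.48% were at least 2-fold higher and 1.59% lower in tumor members, so 0 in a single list is near that background. Cells of both libraries had to reach the same minimum of rule UMIs. The likeness of the rule genes is therefore partly fixed by the rule, and that of genes expressed with them can be too. Nothing is read from it. Of the inhibitor and G1 lists, *Cdkn2a* (log2 -1.23) and *Ccnd2* (-1.18) were past 2-fold lower in tumor members, and *Ccnd2* was also lower in the other tumor cells (-0.99). The histone gene *Hist1h2ap*, whose counts are uncertain as said above, was at 226 CPM in control and 465 in tumor members (log2 1.04).

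Genes tied to the tumor library were higher in members too. The list was drawn from the genes that the paper or earlier results of these data named, so its direction is no independent evidence. Of its 16 genes, 13 were past 2-fold higher in tumor members (median log2 1.82) and 11 in the other tumor cells (median 1.65). *Apoe*, the lipid carrier, was at 6.67 CPM in control members and 140 in tumor members (log2 4.39), and at 27.2 and 618 in the others (4.51). *Inhba*, the activin A subunit, was at 11.6 and 62.8 CPM in members (2.43) and at 48.6 and 151 in the others (1.64). *Ifi27l2a*, an interferon-induced gene, was at 78.0 and 838 in members and 40.5 and 595 in the others, and *Il1b*, a cytokine, at 65.0 and 489 against 142 and 694. *S100a4* was at 30.9 and 259 in members, *Crip1* at 352 and 1644, and *Spp1*, osteopontin, at 609 and 1715 against 564 and 2485 in the others.

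*S100a6* needs its pair of cells set apart. It was at 52.8 CPM in control members and 1084 in tumor members, but 59.3% of the tumor members' UMIs came from those 2 cells, and without them it was at 455 CPM, below the 560 of the other tumor cells. Its log2 ratio of members over other tumor cells was 0.95 with them and -0.30 without, and that of tumor over control members was 4.36 and 3.11. *Ifitm3*, an antiviral membrane protein, was at 107 CPM with the 2 members and 23.8 without, against 51.8 in all the other tumor cells and 1.72 in control members. Its log2 ratio of members over other tumor cells was 1.05 with the 2 members and -1.12 without. It was -0.88 when like cells were left out of both pools. With and without the 2 members, *Col3a1* was at 23.1 and 0.899 CPM, while *Apoe* was at 140 and 143 and *Inhba* at 62.8 and 64.3.

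By the fixed rule of size, the genes with the highest ratios besides these were *Marcks*, a substrate of protein kinase C (2.86 to 55.4 CPM), *Plk2*, a stress-linked kinase (5.91 to 60.6), *Syngr1*, a vesicle protein (6.67 to 63.7), and *Vps37b*, of the ESCRT machinery (9.91 to 65.8). Each was also higher in the other tumor cells, with log2 ratios from 2.31 to 3.38. The lowest ratios were those of *Fabp1*, a fatty acid carrier, at 413 CPM in control and 83.7 in tumor members (log2 -2.30), *Cpne5*, a copine (103 and 23.1), *Gal*, galanin (83.1 and 21.4), *Htr2c*, a serotonin receptor (66.3 and 18.7), and *Marco*, the scavenger receptor (613 and 187, log2 -1.71). They were followed by *Acaa1b*, a peroxisomal thiolase, *Krt19*, a keratin, *Fam89a*, *Kat6b*, an acetyltransferase, and *Lepr*, the leptin receptor, at 67.1 and 27.0 CPM. These 5 with full values were lower in the other tumor cells as well, *Fabp1* at 524 and 131 CPM and *Marco* at 583 and 207.

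**Figure D5:**
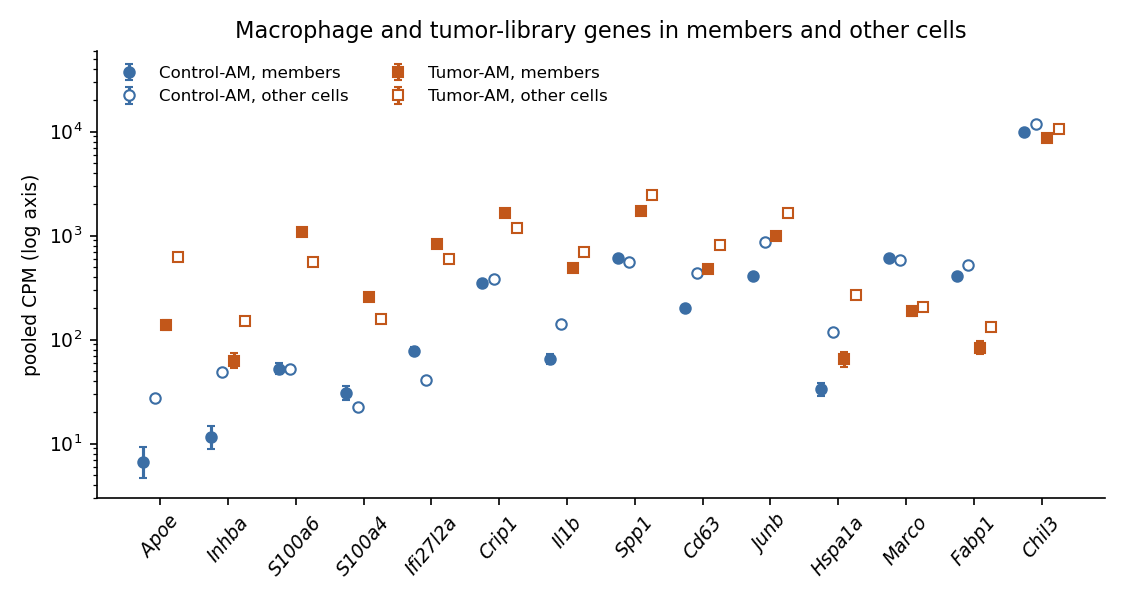
Pooled CPM (log axis) of 14 genes in members (filled) and other cells (open) of Control-AM (blue circles) and Tumor-AM (orange squares), with 95% counting intervals. *Apoe* is at 6.67 and 140 CPM in control and tumor members and at 27.2 and 618 in the other cells, with members below the others in each library, while *Chil3* stays between 8732 and 11810 in all 4.

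Within a library, several of these genes were lower in members than in the rest. *Apoe* had log2 ratios of -2.03 in control and -2.15 in tumor, *Inhba* had log2 ratios of -2.06 and -1.27, *Cd63*, a lysosomal membrane protein, of -1.11 and -0.77, and *Junb*, a transcription factor, of -1.08 and -0.73. Cell numbers tell the same at equal depth for *Cd63*, found in 40.6% of control members against 58.8% of the others and in 63.9% against 82.2% in tumor, and for *Junb*, in 65.5% against 87.8% and 90.4% against 96.6%. *Inhba* was found in 2.63% against 6.59% in control and 13.9% (8.99 to 20.1) against 20.3% in tumor. *Apoe* was found in 18.7% of tumor members (13.1 to 25.4) and 29.5% of the others, and in control in 3.22% (1.62 to 5.68) and 4.59% (4.04 to 5.19), where the intervals overlap. Among S-phase cells *Apoe* was found in 5.17% in control and 13.0% in tumor, and *Inhba* in 3.02% and 21.7%. So low detection was not particular to members for *Apoe* in tumor and *Inhba* in control. Other genes of the list were higher in members: *S100a4* was found in 32.5% of tumor members (25.5 to 40.2) and 21.8% of the others, and *Ifi27l2a* in 59.0% (51.1 to 66.6) and 45.8%, where the level was also higher (log2 0.72 and 0.49). *Spp1* was mixed, found in 81.3% of control members (76.7 to 85.3) and 64.5% of the others at nearly equal levels (log2 0.11), and in 88.0% and 84.7% in tumor (difference 3.30 points, -2.71 to 7.91), where its level was lower in members (log2 -0.53).

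Read from the other side, the share of members differed by the gene a cell carried. Over cells deep enough to thin, members were 1.53% (1.04 to 2.16) of tumor cells with an *Apoe* UMI after thinning and 2.75% (2.31 to 3.25) of those without. For *Inhba* the shares were 1.64% (1.04 to 2.45) and 2.58% (2.18 to 3.04), whose intervals overlap. Tumor cells with a *Cd63* UMI held 1.87% members (1.53 to 2.26) and cells without one 4.75% (3.64 to 6.07). *S100a4* went the other way, 3.52% (2.66 to 4.57) with and 2.07% (1.71 to 2.49) without. In control the highest *Inhba* class, cells with 3 or more UMIs, held 0 members of 79 cells, which allows a share of up to 3.8% by 3 counts of the total and 4.56% by the exact interval.

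The change between libraries was also set side by side for members and other cells. The tumor over control ratio (log2) of members fell below that of other cells by 0.68 for *Klf2* (-0.86 to -0.49), by 0.61 for *Jun* (-0.75 to -0.47) and by 0.65 for *Egr1* (-0.89 to -0.41). These 3 transcription factor genes were named after their values were seen, and early response genes did not move together: the difference was 0.35 for *Junb* (0.26 to 0.44), 0.09 for *Fos*, 0.08 for *Fosb*, 0.01 for *Atf3* and -0.03 for *Ier2*. *Klf2*, *Jun* and *Egr1* were at like levels in members and others of control, such as 161 and 162 CPM for *Klf2*, and lower in members of tumor, at 153 against 245. *Spp1* differed by -0.65 (-0.72 to -0.58), while *Crip1* differed by 0.59 (0.51 to 0.68) and *Inhba* by 0.80 (0.35 to 1.26) in the other direction. With 1 library a group, these differences have no replicate check.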

How the data were processed

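Single-cell 3′ libraries of sorted AMs were analysed, 1 from control and 1 from tumor-bearing mice. The authors deposited raw UMI counts per gene and barcode; the submitters' processing notes name bcl2fastq 2.20, Cell Ranger 4.0.0 and mm10, while the study's methods name a later Cell Ranger version. Hashtag reads and the bulk data were not used here. The tables held 67847088 UMIs in 8485 control barcodes and 70738320 in 9175 tumor barcodes, and 32158 of 32285 gene identifiers were matched to a symbol. Coordinates come from GENCODE vM21 and RefSeq, both on GRCm38.

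Levels are CPM of UMIs pooled over the cells of a class. Ratios were taken between pools, with exact 95% intervals that cover counting error only; PCR and animal variation are outside them, and no test or p-value was computed. Shares at equal depth used 1 random draw of 3800 UMIs a cell, the 10th percentile of the shallower library rounded down. The code was tested on simulated data. The members, lists and rules were chosen with earlier results of these data known. Named are the rule genes, list genes with the highest level, the largest or smallest ratio or a role singled out, and the 10 genes of largest ratio in each direction at 50 CPM or more, ribosomal, mitochondrial and immunoglobulin genes left out. Alternatives changed the rule's minimum and genes, depth, mitochondrial limit, Scrublet doublet scores, comparison cells, scaling and the CPM minimum, and left out cells with at least 3 UMIs of other types. That last setting flagged 29 control and 36 tumor members. These are fewer than the members with 3 or more UMIs of monocyte genes, so it did not cover every type counted above. Python 3.11.15, numpy 2.4.6, scipy 1.17.1, pandas 2.3.3 and scanpy 1.11.5 were used.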

Additional observations from a re-analysis of the deposited data

How the results depend on the processing

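The control share of members was 2.22 to 2.74 times the tumor share over 10 settings. It was 7.03% against 3.17% with a minimum of 3 rule UMIs, 4.35% against 1.84% (-2.51 points) with 10, 3.99% against 1.73% (-2.26) in thinned cells, and 4.77% in control without *Mki67*. Genes at least 2-fold higher in members numbered 546 to 983 in control and 573 to 1115 in tumor, each within 1.5 times of the reported count, while the fewer lower genes moved more: in control 67 with 10 rule UMIs, 105 thinned, 22 at 20 CPM and 270 without a CPM minimum, and in tumor 32 with 3 rule UMIs, 166 thinned, 38 at 20 CPM and 462 without one. Genes lower in tumor than control members were 62 at 20 CPM. In tumor, the log2 ratio of members over other cells turned to 1.17 for *Cxcl9* with 3 rule UMIs, to -0.24 for *Cxcl10* thinned, and for *Ifitm3* to -2.20 thinned, -0.99 without cells holding UMIs of other types and -0.88 without cells that lack *Ptprc* and AM markers, a setting chosen after seeing the data; the cause was not tested beyond the 2 cells described above. Of the other values of named genes, 11341 stayed within the counting interval of the reported value and 1272 lay outside it. Of list medians, taken over the genes counted in each setting, these were 916 and 83. A turn of direction was recorded only for ratios reported at 2-fold or more. Smaller ratios that changed sign are among the values counted here. Scaling by the median gene shifted ratios by 0.07 or less. No paired analysis was possible because each group has 1 library, and leaving a library out leaves no comparison. Genes under 50 UMIs and single UMIs are below what this depth resolves.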

Other observations

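Further lists were read in the members. Of MHC class II genes, 0 of 6 counted were past 2-fold against the other cells in either library, with median log2 ratios of -0.22 in control and -0.07 in tumor. Over all genes 8.74% were higher and 0.508% lower in control, and 9.62% and 0.909% in tumor, so nothing is read from a count of 0 in so short a list. *H2-Aa*, an antigen-presenting chain, was at 82.6 CPM in control and 85.5 in tumor members. Glycolytic enzymes were past 2-fold in 0 of 11, to be read against the same shares, with medians of -0.15 and -0.07. Between the libraries, *Hk2*, the first enzyme of the pathway, had a log2 ratio of tumor over control of 1.49 in members and 1.36 in the other cells. Sterol synthesis genes had a median tumor over control ratio of 0.88 in members and 0.79 in the other cells over 11 genes, and *Cyp51*, a sterol demethylase, was the highest in members at 1.07. Interferon-stimulated genes were past 2-fold higher in 4 of 6 counted genes between tumor and control members (median 2.93), and in 3 of 5 (median 1.74) without the 2 members described above, against 2.48% of all genes. At equal depth the median was 0.44, and without cells that hold UMIs of other types 0.67. Genes were counted anew in each of these settings, so both medians can cover other genes than the 6 above. In the other cells 9 of 10 were past 2-fold (median 3.49), against 2.69% of all genes. *Isg15*, of that list, was at 68.9 CPM in tumor members, or 39.6 without those 2, and at 11.8 in control members. *Cxcl10*, a chemokine of that list, was at 23.6 CPM in control members against 3.0 in the other cells, and in tumor at 47.1 against 15.2, or 21.6 without the 2 members described above. At equal depth its tumor log2 ratio turned to -0.24, against 2.61 in control, so its direction in tumor is not settled.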
